A study of Mus musculus with 24 samples.

Results

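Transcripts of spermatids were followed through 24 arrays of mouse epididymal fat. The 7 genes Prm1, Prm2, Tnp1, Tnp2, Ldhc, Odf1 and Smcp were chosen on the measured intensities of these same arrays, some of which were already known to hold high signals for such genes. All probes that the platform annotation pairs with these symbols were used, which gave 9 of 45281 probes for 6 of the 7 genes. Prm1 has 2 probes, Ldhc has 3, and Tnp1, Tnp2, Odf1 and Smcp have 1 each, whereas no probe is paired with Prm2, which is not analysed here. Because measured levels chose the genes, their values on these arrays are a description and carry no test.

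All mice were male C57BL6/J animals of 8 months with no engineered allele named in the labels. The DR group was kept on 40% dietary restriction, the Rapa group received rapamycin, an inhibitor of the mTOR kinase, at 14 ppm, and the AL group ate ad libitum. Treatment ran for 6 months from 2 months of age, and each group holds 8 arrays, 1 per sample. The labels do not say that each sample came from its own animal. The series title sets the effect of rapamycin on white fat against that of restriction.

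The source label names epididymal fat, while the tissue label and the extraction protocol name liver. Of 14 hepatocyte genes 5, Alb, Fgb, Apoh, Ugt2b1 and Tat, were detected on no array, while Trf, which other tissues also express, was detected on all 24 and the other 8 on 2 to 8 arrays. The fibrinogen gene Fga was among these and reached 8.46 on Rapa8. In contrast, 10 of 11 adipocyte genes, among them Adipoq and Lep, were detected on all 24. Array brightness varied, with upper quartiles of background-subtracted intensity between 17.5 and 78.9 in DR, 15 and 106.7 in Rapa, and 24.8 and 111.7 in AL. The number of arrays limits the precision of every value below.

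Spermatids are the haploid cells that become sperm in the testis. As the nucleus condenses, histones give way to transition proteins (Tnp1, Tnp2) and these to protamines (Prm1, Prm2), small basic proteins that pack sperm DNA. Their messages are made early and stored before use, and several of these genes are known targets of the transcription factor CREM, which binds cAMP response elements. The epididymal fat pad lies against the epididymis, the duct in which sperm mature, and close to the testis. In a piece of tissue, fewer cells of a type and less RNA per cell cannot be told apart.

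The genes lie on several chromosomes of the GRCm38.p6 assembly. Prm1 (chromosome 16, 10796332 to 10796823), Prm2 (10791377 to 10792105) and Tnp2 (10787935 to 10788655) stand within 8.9 kb of each other on chromosome 16. Tnp1 is on chromosome 1 (73015074 to 73015899), Ldhc on chromosome 7 (46861263 to 46878147), Odf1 on chromosome 15 (38219203 to 38226735) and Smcp on chromosome 3 (92583866 to 92589073). The 120 bases just before the annotated start are shown for 3 members detected together and for Tnp2, the neighbour of Prm1 that was detected on no array. The sequences are from RefSeq, GRCm38.p6, which held a promoter for 6 of the 7 genes, and they are written 5′ to 3′ on the strand of the gene. Capitals mark TGANNTCA, a cAMP response element with its central pair left free and the same on both strands, and TGACG, its half-site, searched on both strands.
Prm1: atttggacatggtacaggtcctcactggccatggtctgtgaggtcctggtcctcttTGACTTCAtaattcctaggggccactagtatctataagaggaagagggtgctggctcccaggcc
Tnp1: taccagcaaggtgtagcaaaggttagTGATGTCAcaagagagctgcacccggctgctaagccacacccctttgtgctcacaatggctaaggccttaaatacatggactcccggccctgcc
Ldhc: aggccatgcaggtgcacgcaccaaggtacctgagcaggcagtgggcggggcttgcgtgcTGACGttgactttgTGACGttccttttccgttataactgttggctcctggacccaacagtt
Tnp2: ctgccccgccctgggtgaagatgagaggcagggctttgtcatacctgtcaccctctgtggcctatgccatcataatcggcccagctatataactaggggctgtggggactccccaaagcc
The windows are chr16:10796824-10796943 (minus strand) for Prm1, chr1:73015900-73016019 (minus strand) for Tnp1, chr7:46861143-46861262 (plus strand) for Ldhc and chr16:10788656-10788775 (minus strand) for Tnp2. The match begins 64 bases before the start in Prm1 and 94 bases before it in Tnp1, and the half-sites of Ldhc begin 61 and 47 bases before the first of its listed starts. Smcp holds the same 8 letters as Tnp1 (TGATGTCA), beginning 25 bases after its annotated start. The 120 bases before the start hold no match in Smcp, which was detected, in Prm2, or at the second listed start of Ldhc. The 3 sequences shown with a match are thus the only ones among the 6 genes with a promoter. The choice of sequences therefore cannot tie a match to detection. Windows of 300 bases around a start hold TGANNTCA in 14.1% and TGACG in 20.8% of 32851 RefSeq promoters. The motifs were chosen with these sequences in view, and a match is only a run of letters.

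A probe was called detected on an array at a detection p under 0.05, as deposited. At least 1 member was detected on 21 of 24 arrays, and the exceptions were Rapa4, AL4 and AL5. On 8 arrays 5 members were detected together, namely DR5 and DR8, Rapa6, Rapa7 and Rapa8, and AL1, AL7 and AL8. The median number of members detected per array was 2.5 in DR, 2 in Rapa and 3 in AL, with ranges of 1 to 5, 0 to 5 and 0 to 5. Arrays with 5 members detected thus occurred in every group, AL included. At a detection p under 0.01 AL8 held 3 members, while the rest of these arrays still held 5.

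Prm1, the protamine, was detected most often. Its brighter probe was detected on 19 arrays, 8 in DR, 5 in Rapa and 6 in AL. The level, given as log2 intensity after background correction and quantile normalization, had a lowest, median and highest value of 5.52, 6.00 and 10.27 in DR, 4.73, 6.77 and 12.29 in Rapa, and 5.10, 6.61 and 11.72 in AL. The groups overlapped over most of their range, and each held 1 or more arrays far above the others. The highest Prm1 levels were those of DR5 at 10.27, Rapa6 at 11.12, Rapa8 at 12.29 and AL7 at 11.72. The deposited intensities behind them were 394.4 on DR5, 3716.7 on Rapa6, 5109.9 on Rapa8 and 3304.2 on AL7, so DR5 stood much lower before normalization. DR5 was also a dim array, with an upper quartile of 17.5, against 61.1 on Rapa8 and 48.3 on AL7. The second Prm1 probe followed the first (Pearson r of 0.98 over 24 arrays) and peaked on the same array, at 12.10.

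Tnp1, a transition protein that precedes the protamines on sperm DNA, was detected on 11 arrays, 3 in DR, 4 in Rapa and 4 in AL. Its levels ran from 4.44 over a median of 4.83 to 9.10 in DR, from 4.44 over 5.40 to 9.76 in Rapa, and from 4.41 over 4.92 to 9.34 in AL. Single arrays set the top of each group, DR5 in DR, Rapa8 in Rapa and AL7 in AL. Tnp2, its partner, was detected on 0 of 24 arrays by its 1 probe. Its log2 levels stayed between 4.33 and 4.94 over all groups, while the lowest detected signal of an array lay between 5.04 and 5.70. Prm3, which lies in the same cluster on chromosome 16 and was on the list of other spermatid genes, was detected on Rapa8 alone, at 5.36.

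**Figure D1:**
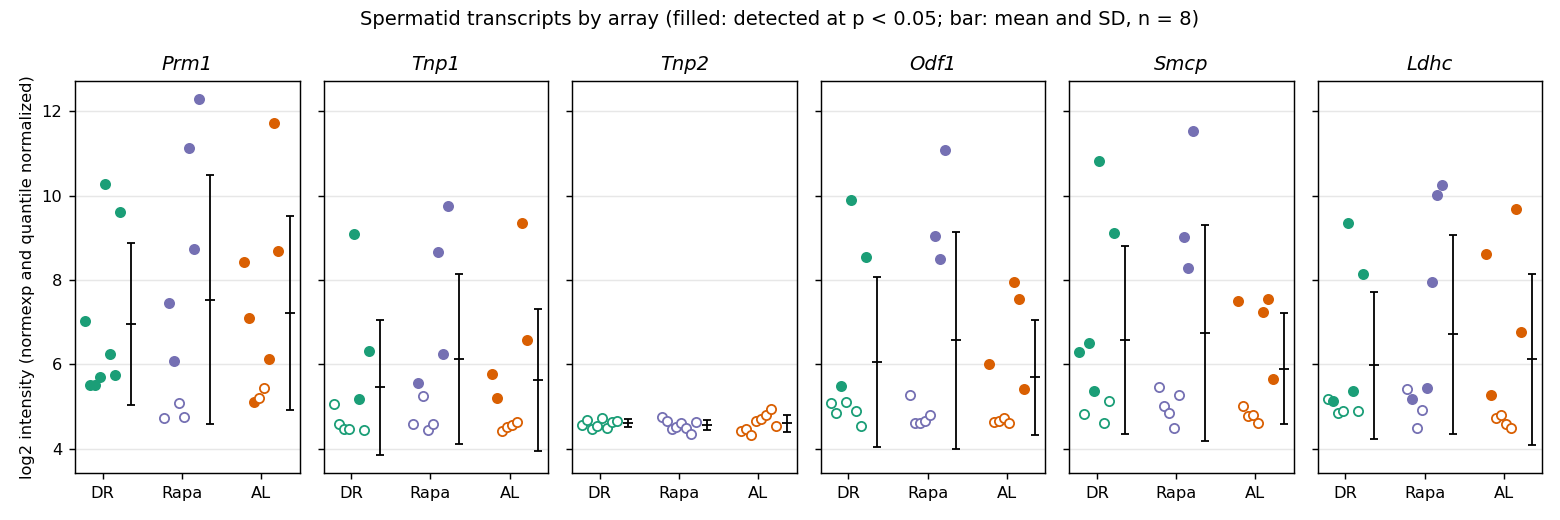
Each point is 1 array, with the log2 intensity of the brightest probe of a member on the vertical axis and the DR, Rapa and AL groups on the horizontal axis. Filled points were detected at p under 0.05, and bars give the mean and SD (n = 8). A few arrays in each group stand far above a floor near 5, and Tnp2 stays at the floor on all 24 arrays.

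Odf1, a keratin-like protein of the outer dense fibres of the sperm tail, and Smcp, a cysteine-rich protein of the sperm mitochondrial sheath, behaved as a pair. Odf1 was detected on 10 arrays (3 in DR, 3 in Rapa, 4 in AL) and Smcp on 12 (5, 3 and 4). Odf1 had lowest, median and highest log2 levels of 4.54, 5.10 and 9.90 in DR, 4.61, 5.03 and 11.09 in Rapa, and 4.60, 5.08 and 7.94 in AL. Smcp had 4.62, 5.83 and 10.81 in DR, 4.50, 5.37 and 11.52 in Rapa, and 4.62, 5.34 and 7.55 in AL. On this normalized scale their tops were lower in AL than in DR and Rapa, while medians differed little. The arrays above the highest AL array on this scale numbered 2 of 8 in DR and 3 of 8 in Rapa for both genes. These counts depended on the normalization. The deposited Odf1 intensity was 469.9 on AL6, above DR5 (307.2), DR8 (290) and Rapa7 (304.4). That of Smcp was 287.5 on AL6, above Rapa7 (261.5) but below DR5 (599.4) and DR8 (436.6).

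Ldhc, the lactate dehydrogenase subunit of germ cells, was detected by its brightest probe on 13 arrays, 4 in DR, 5 in Rapa and 4 in AL. Its log2 levels had a lowest, median and highest value of 4.85, 5.16 and 9.34 in DR, 4.50, 5.43 and 10.24 in Rapa, and 4.49, 5.05 and 9.69 in AL. The other 2 Ldhc probes were each detected on 7 arrays, DR5, DR8, Rapa6, Rapa7, Rapa8, AL1 and AL7. On AL8 only the brightest Ldhc probe was detected, at 6.77.

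The 5 detected members, each by its brightest probe, peaked on the same array but did not rise alike on the others. Each probe was compared with its own median over the 24 arrays. On Rapa8 all 5 detectable members had their highest level, from 4.64 above the median for Tnp1 to 6.11 for Prm1 and Smcp on the log2 scale. On Rapa7 Ldhc stood 4.78 above its median, the second highest of 24 arrays, while Prm1 stood 2.55 and Tnp1 1.13 above theirs (ranks 6 and 7). On Rapa6 the order was reversed, with Prm1 at 4.94 and Ldhc at 2.70 (ranks 3 and 7). These ranks depended on the normalization. By deposited intensity they were 2 for Prm1 (3716.7) and 4 for Ldhc (445.2) on Rapa6, a bright array with an upper quartile of 106.7. On AL7 Prm1 stood 5.53 and Tnp1 4.22 above the median, both second among 24 arrays, but Odf1 stood at 2.46 and Smcp at 2.14 (ranks 7 and 6). AL6 showed the opposite, with Odf1 at 2.84 and Smcp at 1.84 above the median, and Prm1 at -0.06, Tnp1 at -0.49 and Ldhc at -0.75. The deposited Odf1 intensity on AL6 was 469.9, the third highest of its 24 values, while that of the brightest Ldhc probe was -14.1, the lowest of its 24. On AL1 Ldhc stood highest, at 3.38 above its median, with Prm1 at 2.23 and Tnp1 at 0.66.

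As a measure of likeness over the 24 arrays, Pearson's r was 0.96 between Prm1 and Tnp1 and 0.97 between Odf1 and Smcp. The other 8 pairs of the 5 detected members ranged from 0.83 to 0.89. Without Rapa8 and DR5, the arrays farthest from the median, the values were 0.95, 0.94 and 0.67 to 0.84. These figures share arrays, brightness and normalization, and they rest on the minority of arrays with high levels, so they describe this set alone.

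**Figure D2:**
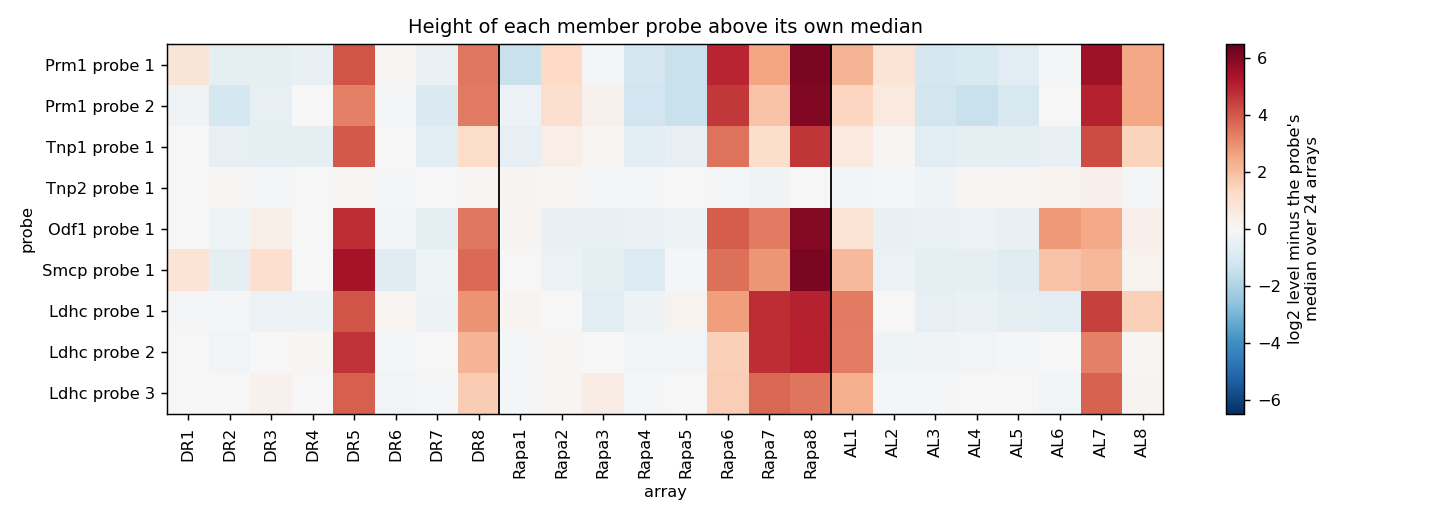
Rows are the 9 member probes and columns the 24 arrays in the order DR, Rapa, AL, with colour giving the log2 level minus the median of that probe over all arrays. DR5, DR8, Rapa6, Rapa7, Rapa8 and AL7 are high for most members, AL6 for Odf1 and Smcp only, and Tnp2 is flat.

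Between groups the mean levels of the members differed by less than their spread. Prm1 averaged 6.96 ± 1.92 in DR, 7.53 ± 2.94 in Rapa and 7.22 ± 2.29 in AL (SD, n = 8 each). The difference was -0.27 ± 1.09 for DR against AL, 0.31 ± 1.09 for Rapa against AL and -0.58 ± 1.09 for DR against Rapa (SE of the fit over all kept probes). For the 5 detected members, differences from AL ran from -0.27 to 0.68 in DR and from 0.31 to 0.88 in Rapa, each smaller than its SE. The extremes were Prm1 and Smcp (0.68 ± 0.94) in DR, and Prm1 and Odf1 (0.88 ± 0.92) in Rapa. In order of mean level Rapa stood first for all 5, followed by AL for Prm1, Tnp1 and Ldhc and by DR for Odf1 and Smcp, and neighbours in these orders lay within 1 SD. Probes detected on at least 8 arrays entered the test over all genes, which 5 members passed, so the 5 are not the whole set. Of these 5, 0 were called in limma at an adjusted p under 0.05 in any comparison, and 0 had an unadjusted p under 0.05. Over all 9836 genes tested, 11.7% were called for DR against AL (5.2% higher, 6.5% lower), 0.153% for Rapa against AL (0% higher, 0.153% lower) and 11.4% for DR against Rapa (5.88% higher, 5.54% lower). Nothing is read from these member counts, since the levels had chosen the genes.

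Single arrays decided the sign of several of these differences. Without AL7 the Prm1 difference for DR against AL became 0.38, and without DR5 it became -0.74. Without Rapa8 the Prm1 difference for Rapa against AL became -0.37, and that of Tnp1 fell to -0.01. Arrays with label numbers 1 and 5 were the dimmest, with upper quartiles of 15 to 29.8, and those with numbers 2 and 6 mostly the brightest, at 73.7 to 111.7. Numbers 3 and 7 (32.6 to 80.7) and 4 and 8 (42.7 to 66.9) overlapped each other, and 3 and 7 also reached into the range of 2 and 6. The labels name no batch. Within these 4 classes of numbers, with 2 arrays per group, the Prm1 difference for DR against AL ranged from -2.77 to 1.73, and that for Rapa against AL from -2.18 to 2.68. The 8 arrays with 5 members detected came from all 4 classes.

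Other genes of spermatids and sperm were read from a list of 87, of which 76 are on the array. Of the 76 genes 8 were detected on no array, among them the sperm surface gene Adam2 and the kinase genes Tssk1 and Tssk2. Between 13 and 37 of the 76 were detected on DR arrays, 8 and 53 on Rapa arrays, and 12 and 52 on AL arrays. The counts were highest on Rapa7 (53), Rapa8 (52), AL7 (52), DR5 (37) and Rapa6 (37), all of which held 5 members. AL1, DR8 and AL8, which also held 5 members, had 23, 21 and 15 of the list. DR8 and AL8 were thus within the range of the remaining arrays, which reached 21 on AL6. The 5 list genes that rose farthest above their own median all did so on Rapa8. They were Cabs1, a calcium-binding protein of spermatids (10.51, against a median of 4.92), Gsg1, a germ cell gene (10.29 and 4.89), Tssk6, a testis kinase (9.34 and 5.21), Oaz3, the spermatid antizyme (8.79 and 4.89), and Odf2, of the outer dense fibres (9.08 and 5.45).

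The genes whose pattern was most like that of the members were sought among 12628 genes detected on at least 3 arrays. Likeness was Pearson's r with the mean of the centred log2 levels of the 6 members over 24 arrays, and it is given without a test. Cabs1 came first at 0.98, followed at 0.95 by Odf4, another outer dense fibre gene, Gsg1, Oaz3 and Mfap3l. Dbil5, a testis homologue of acyl-CoA binding protein, Fabp9, a fatty acid binding protein of testis, and Spata19, a mitochondrial protein of sperm, stood at 0.93. Fam71f2 and Tssk6 followed at 0.92, and Hspb9, a small heat shock protein of testis, and Akap4, the scaffold of the fibrous sheath, at 0.91. All 12 peaked on Rapa8, and without Rapa8 and DR5 their r was between 0.83 and 0.96. Each gene is given here by its probe with the highest r. For Odf4 and Akap4 this was not the probe with the highest mean, whose r was 0.89 for Odf4 and 0.83 for Akap4, with the top of that Akap4 probe on DR5.

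The list was then compared between groups, with the 28 genes that passed the filter on dim probes. For DR against AL, 2 were higher and 2 lower in limma (14.3% of 28, against 11.7% of all genes), with a median log2 difference of 0.12 beside -0.01 over all genes. For Rapa against AL, 0 were called and 1 had an unadjusted p under 0.05, with a median of 0.18 beside -0.01. For DR against Rapa, 3 were higher and 1 lower (14.3%, against 11.4% of all genes), with a median of -0.23 beside -0.01. With arrays scaled to the same median in place of quantile normalization the calls fell to 1 higher and 1 lower for DR against AL and to 1 higher for DR against Rapa.

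The genes that passed were not those that followed the members, and nothing is read from this. A gene that follows the members shares their few high arrays within each group, which can widen its SE. For DR against AL the SE was 0.82 for Cabs1 and 0.89 for Gsg1. It was 0.34 for Dbil5 and 0.39 for Odf4, whose differences were 0.13 and 0.06. Why such genes were not called was not tested. Catsper2, a subunit of the sperm calcium channel, had lowest, median and highest log2 levels of 7.11, 7.58 and 8.21 in DR, 6.10, 6.55 and 7.42 in Rapa, and 6.02, 6.56 and 7.04 in AL. All 8 DR arrays lay above the highest AL array. It rose in DR by 1.14 ± 0.19 (limma adjusted p = 2.18e-04), and its r with the members was 0.29. With arrays scaled to the same median its adjusted p was 0.152. Calr3, a calreticulin of testis, rose in DR by 1.05 ± 0.23 (adjusted p = 0.00324), and 7 of the 8 DR arrays exceeded the highest AL value, while its r was 0.04. Spaca1, a protein of the acrosome membrane, fell by 1.52 on the log2 scale (SE 0.27, adjusted p = 3.32e-04). It was detected on 3 of 8 DR arrays, with a DR median of 4.90, against 7 of 8 in Rapa and 8 of 8 in AL, so the size of the fall was measured against levels that were in part at background. Of the 8 DR arrays 6 lay under the lowest AL value, and its r was -0.09. Tuba3a, an alpha tubulin of testis with a near-identical copy, passed the test as lower in DR (adjusted p = 0.0298), with an r of 0.18. Its probe was detected on 0 of 8 DR arrays and 5 of 8 AL arrays, so DR has only a bound. The measured means were 4.79 in DR and 5.44 in AL. The AL mean stood 1.06-fold above a DR bound of 5.35, set by the lowest detected signal of each DR array. That AL mean includes arrays without detection, so the fold is no firm minimum. The Tuba3a call was lost in 9 of 31 alternatives, with adjusted p from 0.0097 to 0.238, the highest without the 8 arrays with 5 members detected. The means of these genes in Rapa stood near those in AL for Catsper2, Calr3 and Tuba3a, and 0.60 below AL for Spaca1, which was not called. For DR against Rapa, Spag4, a protein of the spermatid nuclear envelope, rose by 0.97 ± 0.24 (adjusted p = 0.00767), as did Catsper2 by 0.99 and Calr3 by 0.89, and Spaca1 fell by 0.93 on the log2 scale. Of these 4, Catsper2, Spag4 and Spaca1 lost the call with arrays scaled to the same median, and Calr3 and Spaca1 without the 8 arrays with 5 members detected. Pcsk4, which encodes a protease that cuts proproteins in germ cells, stood 2.84 ± 0.19 higher in DR than in AL, with an r with the members of -0.11.

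**Figure D3:**
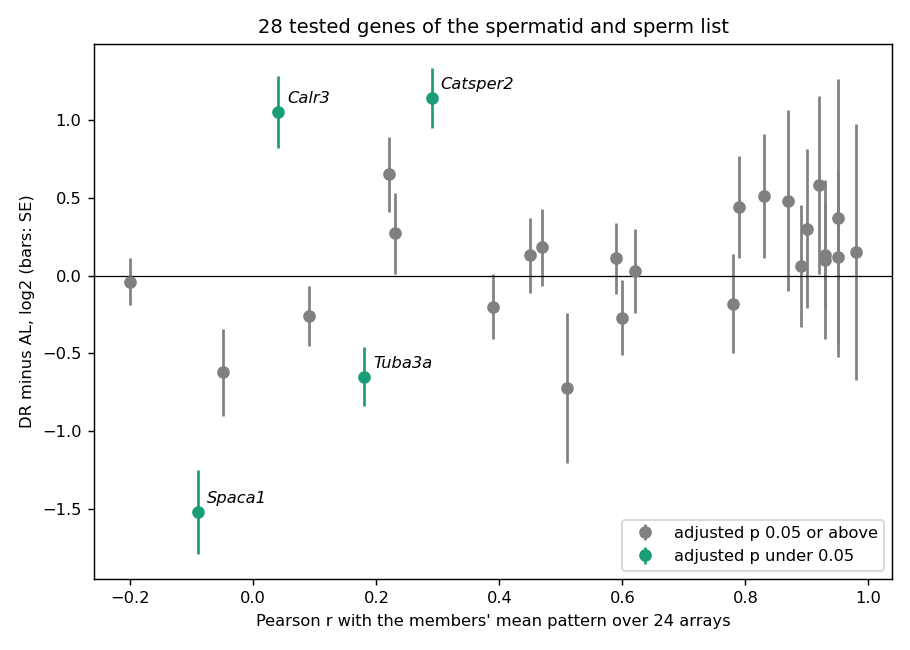
Each point is 1 of the 28 tested genes of the spermatid and sperm list, with its Pearson r with the mean pattern of the members on the horizontal axis and its log2 difference, DR minus AL, with SE, on the vertical axis. The 4 genes called, Catsper2, Calr3, Tuba3a (at background in DR, so its plotted size is not a measured one) and Spaca1, lie at r of 0.29 or below, and the genes with a higher r were not called. Genes with a high r share the spread of the members within groups, so nothing is read from this.

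Markers of the other cells of testis and duct were read on the same arrays. Meiotic spermatocyte genes were detected in numbers of 5 to 10 on DR arrays, 4 to 14 on Rapa arrays and 4 to 13 on AL arrays out of 34, and 11 of them, Sycp1 among them, on no array. Hspa2 and Ybx2 were detected on all 24 arrays and so enter every count. Rapa7 (14), Rapa8 (13) and AL7 (13) had the most. The 4 genes that rose farthest above their own medians did so on different arrays. Their highest log2 levels were those of Tdrd6, a tudor protein of the chromatoid body, on DR5 (7.53), the helicase gene Ddx25 on Rapa7 (7.49), Piwil2, which binds piRNAs, on Rapa8 (8.45) and the cohesin gene Rec8 on AL1 (7.81). Spermatogonial genes showed 1 to 4 of 15 on any array, and 7 of them, such as Stra8 and Gfra1, were detected on none. Zbtb16 was detected on all 24 arrays, with a median of 7.16 and an r with the members of -0.61. It enters every count and sum of this list, so a count of 1 is this gene alone. Summed intensities of the spermatogonial list were 59 to 418 in DR, 66 to 431 in Rapa and 83 to 450 in AL.

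Genes of the somatic cells of the testis were mixed. The median r with the members was 0.14 over 15 Sertoli genes, from -0.33 to 0.67, and 0.16 over 8 Leydig genes, from -0.48 to 0.86. Several Sertoli genes peaked on arrays with low member levels, such as Cst12 on DR1 (6.20), Rhox5 (5.71) and Amh (6.27) on Rapa1, and Fshr on DR6 (5.60). These peaks were close to background, as the lowest detected signal of an array reached 5.70. DR1 and Rapa1 were also among the dimmest arrays, where small signals gave raised levels. On Rapa1 an intensity of 11.4 for the second Prm1 probe became 5.67. Nothing is read from where these genes peaked. Other Sertoli genes peaked on arrays with 5 members detected. Sox9, which was detected on all 24 arrays with a median of 8.65, reached 11.59 on AL1, and its r was 0.45. Cldn11, a tight junction gene of Sertoli cells and other tissues, reached 11.22 on DR5 and 10.98 on Rapa7, and the defensin gene Defb19 9.56 and 8.97 on the same arrays. Cst9, a cystatin of Sertoli cells, was detected on 4 arrays, among them Rapa7 at 7.66 and DR5 at 6.63, with a median of 4.51 over all. Insl3, a Leydig cell hormone, was detected on 23 of 24 arrays with a median of 7.01, and stood at 10.90 on DR5 and 10.68 on Rapa7 but at 5.59 on Rapa8. Cyp17a1, a steroid-making enzyme, reached 10.17 on Rapa8, 9.67 on DR5 and 9.58 on Rapa6. The Leydig cell genes Star, Cyp11a1, Hsd3b1 and Hsd3b6 were detected on no array. Summed Leydig intensities ran from 67 to 924 in DR, 40 to 1552 in Rapa and 49 to 284 in AL, and summed Sertoli intensities from 428 to 1444, 254 to 4261 and 358 to 2211. The Sertoli genes Tsx, Gata4 and Shbg were detected on no array. Whether these cells had a part in the member levels was not tested.

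**Figure D4:**
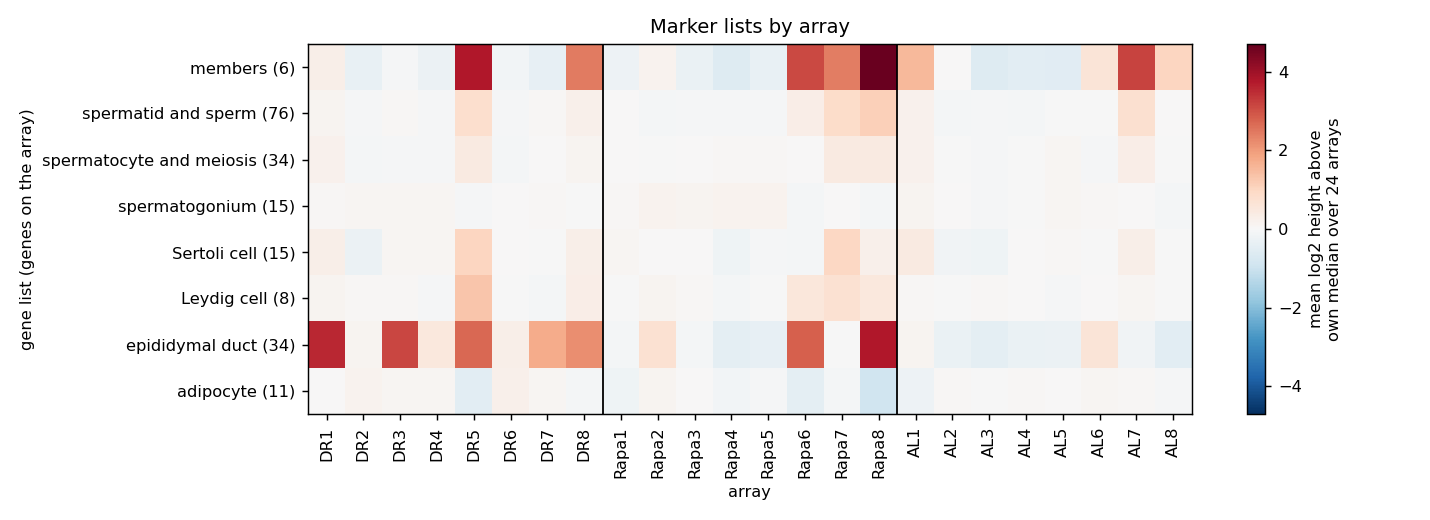
Rows are the members and 7 marker lists, with the number of genes on the array in parentheses, and columns are the 24 arrays in the order DR, Rapa, AL. Colour gives the mean log2 height of the genes above their own medians. The member row is highest on Rapa8 (4.65), the spermatogonial row is near 0 throughout, and the duct row is high on DR1 and DR3, where the member row is not.

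Genes of the epididymal duct followed the members in part. The median r with the members was 0.36 over 34 genes, and 15 of them lay above 0.5, with Crisp4 highest at 0.74 and Defb2 at 0.73. Others did not follow, such as Gpx5 at -0.20 and Spag11b at -0.19. The mean height of the list above the own medians was 3.55 on DR1, 3.14 on DR3 and 1.73 on DR7, where the members stood at 0.26, -0.05 and -0.38. It was -0.02 on Rapa7, 0.13 on AL1 and -0.15 on AL7, where the members stood at 2.42, 1.52 and 3.19. Both were high on DR5 (2.71 for the duct, 3.75 for the members), DR8 (2.17 and 2.46), Rapa6 (2.80 and 3.11) and Rapa8 (3.77 and 4.65). Summed duct intensities were 1388 to 37156 in DR, 110 to 141247 in Rapa and 148 to 39027 in AL. By this sum the arrays stood in another order. It was 18301 on DR1, 125487 on Rapa6 and 39027 on AL6, whose mean heights were 3.55, 2.80 and 0.59.

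The duct genes differed among themselves in where they were high. Lcn8, a lipocalin of the head of the epididymis, reached 12.71 on DR1, 11.89 on DR3 and 11.58 on DR7, and stood at 5.16 on DR5, 5.09 on DR8, 5.41 on Rapa6 and 7.79 on Rapa8. Wfdc10, a protease inhibitor of the duct, reached 13.61 on DR5, 12.79 on DR8, 13.27 on Rapa6 and 14.48 on Rapa8, stood lower on DR1 (10.92) and DR3 (10.21), and lay at 6.34 on Rapa7 and 5.28 on AL7. AL6, the array with Odf1 and Smcp above their medians and the other detected members below theirs, had the defensin Defb42 at 12.49, against a median of 5.96 over all arrays. The part of duct cells or their contents in the member levels was not tested.

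**Figure D5:**
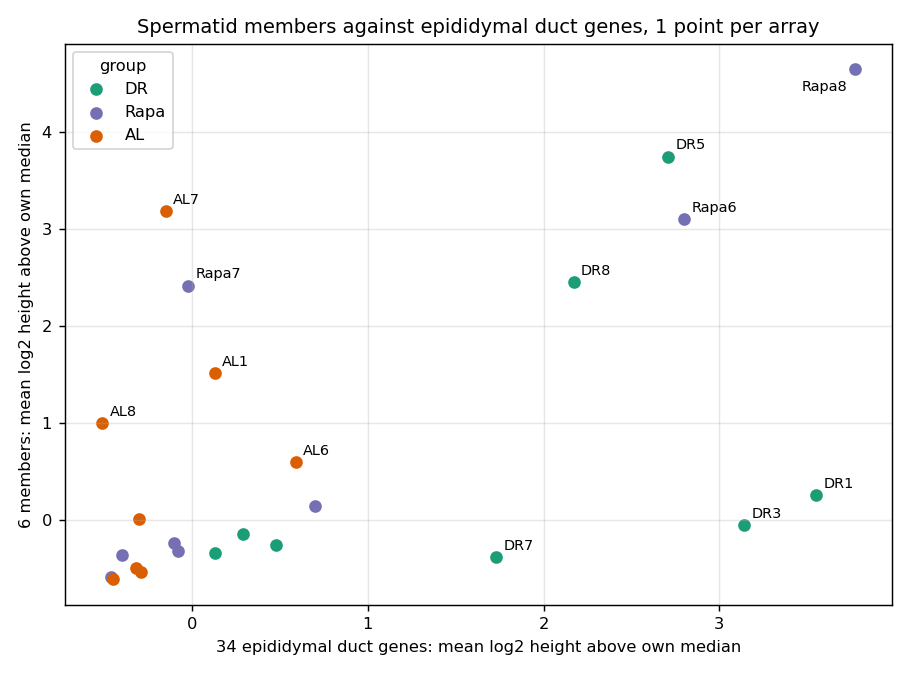
Each point is 1 array, with the mean log2 height of 34 epididymal duct genes above their own medians on the horizontal axis and that of the 6 members on the vertical axis, coloured by DR, Rapa and AL. DR5, DR8, Rapa6 and Rapa8 are high on both axes, AL7, Rapa7 and AL1 on the member axis only, and DR1, DR3 and DR7 on the duct axis only.

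In the fit over all genes, 6 of 21 tested duct genes were higher and 0 lower for DR against AL. This was 28.6%, against 5.2% of all genes called higher and 11.7% in either direction. Some of the 6 passed the filter on dim probes only through DR. Defb37 was detected on 7 DR, 3 Rapa and 0 AL arrays, with an AL mean of 4.79, at background. Lcn12 was detected on 7, 4 and 1, but Wfdc10 on 8, 5 and 5. The list was written with earlier results known, so nothing is read from this share. For Rapa against AL 0 of 21 were called, against 0.153% of all genes, and 3 had an unadjusted p under 0.05. For DR against Rapa 2 of 21 were higher (9.52%, against 5.88% of all genes called higher and 11.4% in either direction). The lists of spermatocyte (9 tested), spermatogonial (1), Sertoli (4) and Leydig (1) genes held 0 calls in limma in all 3 comparisons, and at an unadjusted p under 0.05 they held 0 for DR against AL, 2 spermatocyte genes and 1 Sertoli gene for Rapa against AL, and 1 of each for DR against Rapa. Of 11 adipocyte genes, Lep was called lower for DR against AL (9.09%, against 11.7% of all genes). Of 3 tested hepatocyte genes 0 were called for DR against AL, with 1 at an unadjusted p under 0.05. For DR against Rapa, 2 adipocyte genes were higher and Lep lower (27.3%, against 11.4% of all genes). In that comparison 1 hepatocyte gene, Trf, which many tissues express, was also higher. For Rapa against AL 0 of both lists were called, with 1 adipocyte gene at an unadjusted p under 0.05. On Rapa8 the adipocyte genes stood 0.92 below their own medians on average, the lowest of 24 arrays, followed by DR5 at -0.48 and Rapa6 at -0.47.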

How the data were processed

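RNA from 24 samples was hybridised to Illumina mouse BeadChips, per the labels. The deposited intensity values are background-subtracted, as values below 0 show, and each is paired with a detection p-value, as the file headers name them (deposited by the authors). A second deposited table holds the authors' processed score, a z-score within each array, whose log base is unknown. No scanner software is named in the sources used here. The analysis used limma 3.58.1 under R 4.3.3, with neqc at an offset of 16 (normexp correction from the detection p-values, quantile normalization, log2). Probes detected at p under 0.05 on at least 8 arrays were tested (17165 probes, 9836 genes, each by its probe with the highest mean). A single fit of 3 group means over 24 arrays gave two-sided moderated tests, adjusted by Benjamini-Hochberg over all kept probes and called under 0.05. The fit was tested on simulated data. Since the labels do not tie samples to separate animals, p-values measure the spread between samples.

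Symbols came from the platform annotation. Members and gene lists (spermatid and sperm, spermatocyte, spermatogonium, Sertoli, Leydig, epididymal duct, adipocyte, hepatocyte) were chosen with earlier results of these data known. Named genes are the members, the called genes of the spermatid list, the 12 most like the members, and Pcsk4. Some, but not all, of the genes rising farthest above their median in a list, or detected on all or no array, are also named. The genes quoted for their r in the duct list, Lcn8, Defb42, Cst12, Rhox5, Amh and Fshr were picked after their values were seen. Alternatives were another scaling, the authors' score, other filters and offsets, array weights, blocks, and leaving out arrays.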

Additional observations from a re-analysis of the deposited data

Results flagged for a closer look

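Of 18 sets of 8 values (6 members in 3 groups), 2 held an array set apart from the other 7 by more than Dixon's critical share of the whole range. Chance flags about 1 in 20 such sets, but these genes were chosen on the same intensities, with high arrays known, so the gaps are a description and no test. Tnp1 stood at 9.10 on DR5, with the next DR array at 6.31, a gap of 0.60 of the range. Tnp1 stood at 9.34 on AL7, with the next AL array at 6.58, a gap of 0.56 of the range.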

How the results depend on the processing

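The count of called spermatid list genes kept within 1.5 times of its value under most alternatives. Scaling arrays to the same median gave 2 calls for DR against AL and 1 for DR against Rapa, in place of 4 and 4, and moved the median difference of all genes to -0.28, -0.21 and -0.09 for DR against AL, Rapa against AL and DR against Rapa. Leaving out each array in turn gave 3 to 4, 0 to 0 and 3 to 4 calls in that order. Same-number correlations of deviations passed 0.1 in 18 of 24 pairs (median 0.235, lowest -0.07), a hint of sharing, but not in every pair, and 9 of 24 arrays correlated best with their own number, so the block was kept as an alternative. With this replicate block of the 8 numbers, 5, 0 and 6 list genes were called, with Spag4 added for DR against AL (adjusted p 0.0185) and Tuba3a among those added for DR against Rapa (0.0397). With a block of number classes, chosen after seeing the data, 5, 0 and 5 were called. Without the 8 arrays with 5 members detected, also chosen after seeing the data, 4, 0 and 3 were called. Over all genes, the calls of 1150, 15 and 1123 became 576, 3 and 282 with median scaling, 1886, 121 and 1765 with the replicate block, 1953, 154 and 1887 with number classes, and 1804, 48 and 1244 with array weights. For Rapa against AL the 15 became 25 with an offset of 50 and 8 with no filter. No chip is named in the headers, so no chip block was run. At a detection p under 0.01 members were found on 18 arrays in place of 21. Of 459 recomputed differences of the 5 detected members 32 changed sign, 31 of them on leaving out arrays, and the other was Ldhc for DR against AL by its second probe (0.10). Spaca1 for DR against Rapa lost its call in 5 of 31 alternatives, with adjusted p from 0.00616 to 0.242. Levels near 5 lie at background, so differences there are not detectable.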
